A study of Mus musculus with 8 samples.

Results

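The natriuretic peptide system of the newborn mouse heart was followed through 7 genes, picked by symbol from 48440 entries of a gene count table: the peptide genes Nppa, Nppb and Nppc, the protease gene Corin, and the receptor genes Npr1, Npr2 and Npr3. Counts were found for 6 of the 7, and all 6 passed the filter on low counts. The libraries came from cardiomyocytes purified from C57BL6/J pups on postnatal day 2, with no treatment or altered gene named in the labels. Each of 4 litters gave a male and a female heart, 1 library each, so there were 4 male and 4 female libraries and 2 libraries per litter. No batch or preparation day is named, so a difference between litters cannot be told apart from one between days of preparation.

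Nppa encodes atrial natriuretic peptide (ANP), Nppb encodes brain natriuretic peptide (BNP) and Nppc encodes C-type natriuretic peptide (CNP). ANP and BNP are hormones that heart muscle releases when its wall is stretched. Corin is a membrane protease on cardiomyocytes that cuts the ANP precursor into its active form. Npr1 is a guanylyl cyclase that makes cGMP when ANP or BNP binds, Npr2 is the corresponding cyclase for CNP, and Npr3 is a clearance receptor that takes up all of these peptides. Before birth ANP is made in the ventricles as well as the atria, and its ventricular expression declines after birth. Raised Nppa, Nppb and Myh7 are a textbook sign of a heart under load.

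Library totals ran from 14226342 to 24910243 counts. All levels are given as CPM, read counts divided by the TMM-scaled size of the library. The sex labels were checked first: Xist, the RNA of the inactive X chromosome, had 859 to 1289 CPM in libraries labelled female and 0.624 to 5.38 CPM in those labelled male. The sum of 8 cardiomyocyte markers, such as Tnnt2 and Myh6, ran from 54184 to 68931 CPM. That of 8 endothelial markers, such as Pecam1 and Cdh5, ran from 16.0 to 148 CPM and that of 8 fibroblast markers from 32.4 to 243 CPM, with no marker of these 3 lists at 0 in any library. The test between litters called 4427 of 13771 genes, and 1898 of 13899 without litter 3, so the number of calls kept without that litter is given for each gene list described below. How many of all 4427 calls were kept was not counted, so these numbers have no share over all genes beside them.

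Nppa and Nppb lie side by side on chromosome 4, Nppb at chr4:147985788-147987205 and Nppa at chr4:148000722-148002079, both on the plus strand of GRCm38 with 3 exons each and 13.5 kb between them. Corin lies at chr5:72300025-72504473, Npr1 at chr3:90450591-90465866 and Npr3 at chr15:11839896-11907287, all on the minus strand, and Npr2 at chr4:43631935-43651244 on the plus strand. The 250 bases before the RefSeq start of Nppa (GRCm38.p6, chr4:148000472-148000721, plus strand) and a 30-base stretch upstream of the RefSeq start of Nppb (chr4:147985789-147985818, plus strand) are shown. They are reference sequence, the same for every library, and a link to the pattern over litters was not tested. Capitals mark matches to the motifs searched on both strands.
Nppa: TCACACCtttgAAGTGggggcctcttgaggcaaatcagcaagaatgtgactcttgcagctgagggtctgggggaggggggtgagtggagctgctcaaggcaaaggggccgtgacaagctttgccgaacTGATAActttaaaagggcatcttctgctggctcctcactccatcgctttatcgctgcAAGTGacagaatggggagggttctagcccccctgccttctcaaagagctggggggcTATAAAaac
Nppb: ccggcaGGAATGcagcTGATAAatcagaga

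The Nppa window held the T-box motif TCACACC, found in the 250 bases before the start in 3.33% of 32851 RefSeq promoters. The motif of NK2 homeobox factors, AAGTG, occurred at 2 places (40.7% of promoters). The motif of GATA factors, TGATAA, occurred once (7.94% of promoters), as did the box near the start, TATAAA (12.4%). In the 250 bases before the RefSeq start of Nppb, the M-CAT motif CATTCC, the motif of TEAD factors, was found on the minus strand, beside 1 match each of the GATA motif and the TATA box. The M-CAT letters were present in 12.6% of all promoters and had no match in the Nppa window, while the T-box and NK2 letters had none in that of Nppb. The CArG box and the MEF2 motif, searched by their usual patterns, had no match in either and occurred in 1.47% and 2.92% of all promoters. No motif overlapped another. The GENCODE transcript of Nppb begins 112 bases upstream of the RefSeq start, so the Nppb stretch lies before the start in RefSeq only. A match of letters is a description and no measure of binding.

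Levels were compared between genes per kilobase of the longest annotated transcript. Nppa had 639 ± 582 CPM per kilobase (SD, n = 8), with every library between 206 and 1747. Nppb followed at 72.1 ± 36.5 and Corin at 38.8 ± 13.0 CPM per kilobase, with ranges of 30.5 to 133 and 29.5 to 62.0 that overlap. Npr2 was next at 12.4 ± 1.55 CPM per kilobase, far above Npr3 at 0.861 ± 0.629 and Npr1 at 0.680 ± 0.436. The ranges of Npr3 and Npr1 overlap, while those of Nppa and Nppb, Corin and Npr2, and Npr2 and Npr3 do not. Nppc had 0 counts in all 8 libraries, which allows up to 0.120 to 0.211 CPM per library at 3 counts, counting error only. Unlike the levels, these limits were taken over the library total without TMM scaling. The RNA of CNP, the ligand of Npr2, was thus not detectable at this depth, while Npr2 had the highest level per length of the 3 receptor genes. Among 13771 tested genes, mean CPM ranked Nppa at 178, Corin at 743 and Nppb at 3061, a ranking that is not corrected for length.

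**Figure D1:**
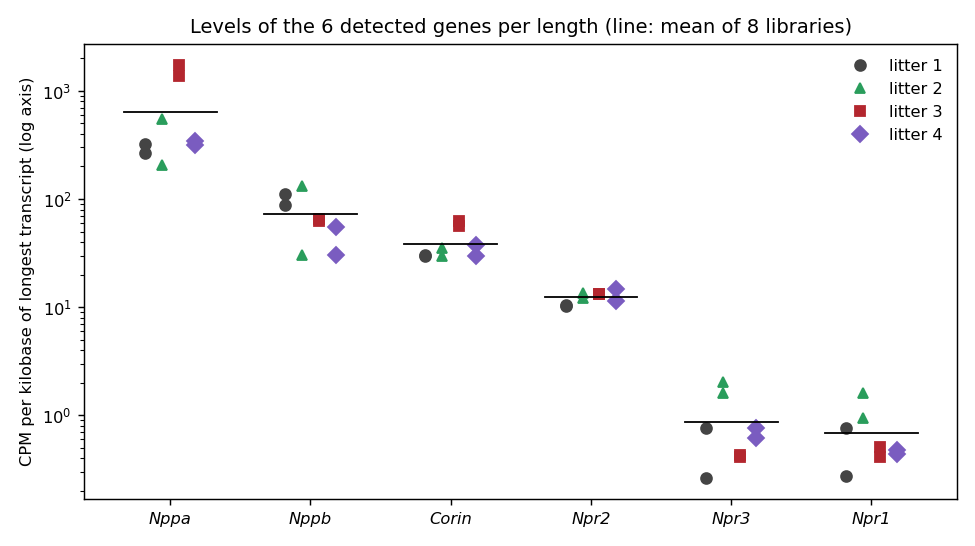
Level of the 6 detected genes in each library, as CPM per kilobase of longest transcript on a log axis, with litters as colours and shapes and a line at the mean of 8 libraries. Nppa lies highest at 206 to 1747, and Npr3 and Npr1 lie lowest and overlap.

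The first comparison asked whether these genes differ between litters. It used edgeR's quasi-likelihood test of the 3 litter terms with sex in the model, and 5 of the 6 tested genes passed an adjusted p-value of 0.05, where 32.1% of all 13771 genes did. The median range over litters was 1.40 on the log2 scale for the 6 genes and 0.37 for all genes. Nppa and Corin were highest in litter 3, Npr1 and Npr3 in litter 2, while Npr2 hardly varied. Nppb was the gene that did not pass. The litter in which each of the 6 genes was highest and lowest was the same with TMM, RLE and library size alone.

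Nppa had 279, 475, 1176 and 272 CPM in the males of litters 1 to 4. In the females it had 232, 178, 1511 and 297 CPM. Both libraries of litter 3 lay above the other 6, which did not exceed 475 CPM, and the mean of litter 3 was 4.65 times that of the others. The range over litters was 2.42 on the log2 scale, 5.36-fold from litter 1 to litter 3 (adjusted p = 0.000148), and it passed in 8 of 8 fits that left out 1 library. Without litter 3, where 13.7% of all genes passed, the range of Nppa was 0.26 (adjusted p = 0.692; over the 15 alternatives with the filter on low counts, from 1.62e-07 to 0.692). The difference thus lay between litter 3 and the rest. Cell type markers moved with litter 3 as well, where 41.8% of all 4427 called genes were lowest and 35.6% highest. The summed fibroblast markers averaged 42.1 CPM there and 138 to 198 CPM in the other litters, with 6 of 7 called genes lowest in litter 3 and 5 of the 7 calls kept without it. The sum of 8 mural markers averaged 909 CPM against 1366 to 1462 CPM, with 5 of 6 called genes lowest there and 3 of the 6 calls kept. In that sum Acta2 was at 356 CPM in litter 3 against 832 to 966 CPM. The other 7 mural markers summed to 553 CPM in litter 3 against 496 to 578 CPM, mostly Abcc9, at 411 to 487 CPM. Of these 7, Pdgfrb, Rgs5, Myh11 and Notch3 were called and lowest in litter 3. Pdgfrb had 0.675 CPM there against 2.51 to 5.98 CPM, and Rgs5 1.20 CPM against 4.07 to 9.50 CPM. Cspg4 was called and highest there, at 69.5 CPM against 57.5 to 67.7 CPM. Endothelial markers averaged 18.8 CPM against 26.6 to 115 CPM, with 6 of 8 called genes lowest there and 8 of 8 calls kept. Cardiomyocyte markers averaged 54412 CPM against 63850 to 64266 CPM, with 4 of 6 called genes lowest there and 2 of the 6 calls kept. Without Myh6 the other 7 summed to 37901 CPM in litter 3 against 37749 to 39143 CPM, with changes in both directions. Myl3, at 4514 CPM against 5498 to 6093 CPM, Tnnc1 and Actn2 were called and lowest there. Tnnt2, at 13041 CPM against 11652 to 12827 CPM, and Pln were highest there and not called. The epicardial and erythroid sums were higher there. Epicardial markers averaged 23.6 CPM against 14.4 to 18.0 CPM, mostly Tbx18, at 21.2 CPM against 10.8 to 12.7 CPM. Of 3 called epicardial genes, 1 was highest and 1 lowest in litter 3, and 1 call was kept. Erythroid markers averaged 358 CPM against 170 to 179 CPM, with 531 CPM in the male and 185 CPM in the female. All 6 were highest in litter 3, with 1 called and 0 calls kept. The part of these cells in the levels of Nppa and Corin was not tested.

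Corin was likewise highest in litter 3 and lowest in litter 1, at a smaller size. Its males had 146, 173, 272 and 183 CPM in litters 1 to 4, and its females 143, 145, 302 and 144 CPM. Litter 3 was again above all other libraries, which ran from 143 to 183 CPM, with 1.84 times their mean. The range was 0.99 on the log2 scale (adjusted p = 0.000111), and without litter 3 it was 0.16 (adjusted p = 0.333; from 2.35e-21 to 0.333 over the same alternatives). Within each sex, the substrate gene Nppa and its convertase gene Corin thus both peaked in litter 3.

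Nppb did not share this pattern, although it lies next to Nppa. Its males had 69.5, 104, 48.7 and 43.2 CPM in litters 1 to 4 and its females 86.8, 23.8, 50.9 and 23.9 CPM. The libraries of litter 3 lay in the middle of the range, and the male and the female of litter 2 were the highest and the lowest of all. With a range of 1.33 over litters, Nppb missed the threshold (adjusted p = 0.0951). It passed without the male of litter 2 (0.000788), the female of litter 2 (0.000753), both of them (0.00137) or the male of litter 1 (0.0225), and without the filter on low counts; with the filter, alternatives ran from 0.000753 to 0.526. Per length, Nppa exceeded Nppb 21.8-fold and 26.8-fold in the male and female of litter 3 and 2.42-fold to 11.2-fold in the other libraries, a ratio that no scaling of libraries can alter.

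**Figure D2:**
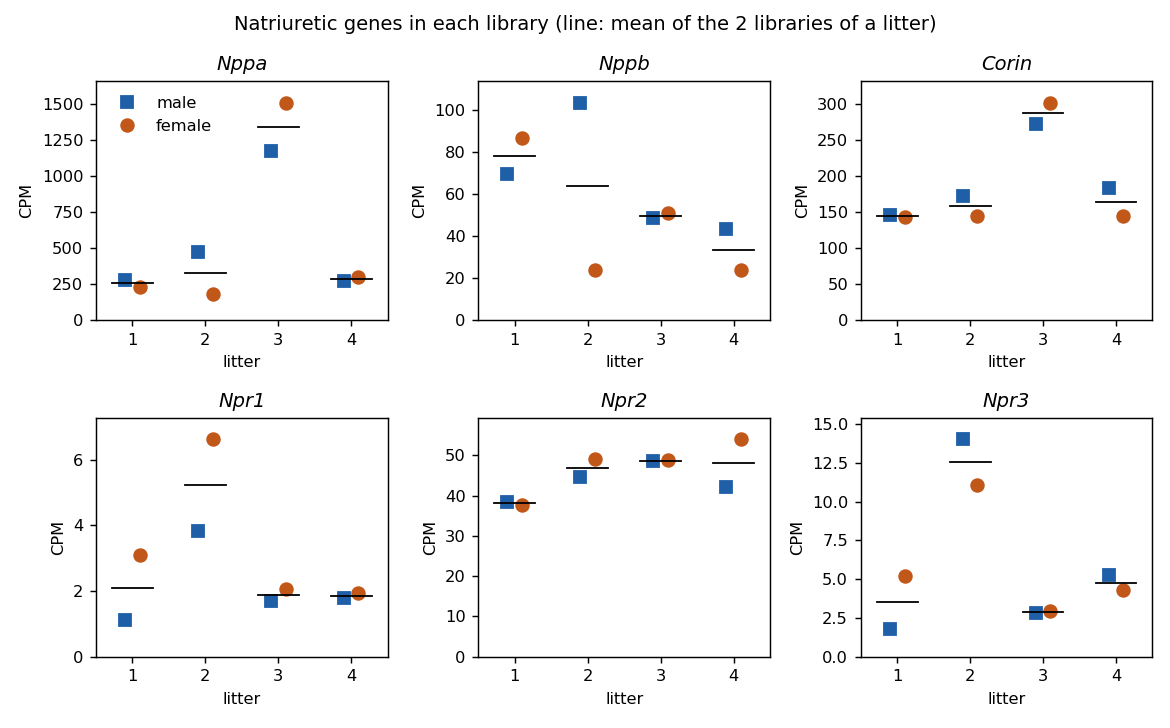
CPM of the 6 detected genes in each library by litter, males as squares and females as circles, with a line at the mean of the 2 libraries of a litter. Nppa reaches 1176 and 1511 CPM and Corin 272 and 302 CPM in litter 3, where Nppb has 48.7 and 50.9 CPM.

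Of the receptor genes, Npr1 and Npr3 were highest in litter 2, and Npr2 in litter 3 by a small margin. Npr1, the ANP and BNP receptor, had 1.12, 3.83, 1.69 and 1.79 CPM in the males of litters 1 to 4 and 3.08, 6.61, 2.06 and 1.93 CPM in the females, from 28 to 147 counts per library. It was highest in litter 2, with a range of 1.47 on the log2 scale (adjusted p = 0.00406). The call was lost without both libraries of litter 2, where 33.4% of all genes passed, with a range of 0.12 (adjusted p = 0.954), and without the female of litter 2 alone, where the range stayed at 1.39 (adjusted p = 0.0572); with the filter, alternatives ran from 0.00131 to 0.954.

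Npr3, the clearance receptor, had 1.81, 14.0, 2.82 and 5.25 CPM in males and 5.22, 11.1, 2.96 and 4.28 CPM in females of litters 1 to 4. Both libraries of litter 2 lay above the other 6, with 3.37 times their mean. The range was 2.12 on the log2 scale (adjusted p = 0.00145), and without litter 2 it was 0.70 (adjusted p = 0.252; from 9.39e-06 to 0.252 over the alternatives with the filter). Within litter 1 the male was below the female in both receptors, with log2 differences of male minus female of -1.46 for Npr1 and -1.53 for Npr3.

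Npr2, the CNP receptor, was even across libraries, with 38.5, 44.5, 48.5 and 42.2 CPM in males and 37.7, 49.0, 48.8 and 53.9 CPM in females. Its range of 0.36 on the log2 scale lay below the median of 0.37 over all tested genes. It passed narrowly (adjusted p = 0.0433) and kept the call in 7 of 16 alternatives. Without litter 3 the range was 0.33 (adjusted p = 0.0683), and with the filter on low counts alternatives ran from 0.0124 to 0.44. Its coefficient of variation over the 8 libraries was 12.5%, against 64.1% for Npr1 and 73.0% for Npr3.

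Endothelial markers moved with Npr1 and Npr3. Npr1 is known from endothelium and Npr3 from the endocardium, the inner lining of the heart. The endothelial list summed to 16.0, 81.4, 18.0 and 29.4 CPM in the males of litters 1 to 4 and to 61.9, 148, 19.6 and 23.8 CPM in the females. All 8 of its genes passed the litter test, where 32.1% of all genes did, and all 8 were highest in litter 2. Of 7 endocardial markers 5 were tested and 4 passed, again all highest in litter 2, and 3 of the 4 calls were kept without litter 3. Other non-myocyte markers were often highest there too: 5 of 7 called fibroblast genes and 3 of 6 called mural genes, where 15.3% of all 4427 called genes were. In bulk samples more cells of a type and more RNA per cell cannot be told apart. The part of RNA from these cells in the levels of Npr1 and Npr3 was not tested.

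**Figure D3:**
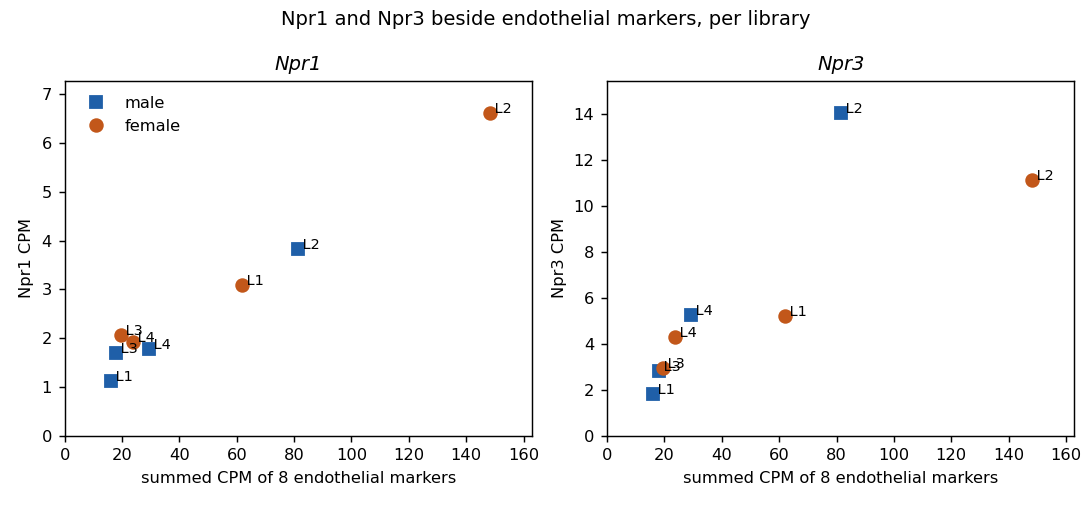
CPM of Npr1 and of Npr3 against the summed CPM of 8 endothelial markers in each library, males as squares and females as circles, with the litter beside each point. The libraries of litter 2, at 81.4 and 148 summed CPM, hold the highest Npr1 and Npr3.

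The genes whose pattern over the 8 libraries was most like that of each natriuretic gene were sought among 13765 other tested genes, by the root mean square difference of log2 CPM after each gene was centred on its own mean. They were chosen for this likeness, so it is a description. The nearest to Nppa were Gem, which encodes a small GTP-binding protein that limits calcium channels, at 0.33, Sema5a, a semaphorin, at 0.34, and 8430419K02Rik at 0.41, beside an SD of 1.05 for Nppa itself. The nearest to Corin were Spon1 at 0.080, Tmem164 at 0.084 and Abca1, a cholesterol exporter, at 0.089. All 6 of these genes had their highest values in the libraries of litter 3.

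Nppb went with another set. Its nearest gene was Ankrd1, a stretch-responsive muscle protein, at 0.20, followed by Ctgf, a matricellular protein and well-known YAP and TEAD target, at 0.32 and Sytl2 at 0.35, beside an SD of 0.73 for Nppb. Ankrd1 had 509, 628, 359 and 337 CPM in the males of litters 1 to 4 and 488, 185, 283 and 186 CPM in the females. Like Nppb, it was highest in the male of litter 2 and lowest in the females of litters 2 and 4. Ctgf had 115 CPM in the male and 45.4 CPM in the female of litter 2. Ankrd1 also missed the litter threshold (adjusted p = 0.0522; without litter 3, 0.0376).

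The nearest genes of Npr1 were Lgals9 at 0.17 and the endothelial genes Egfl7, itself in the endothelial list, at 0.20 and Dll4 at 0.21. Those of Npr3 were the endothelial genes Clec14a at 0.21, Vwf, the von Willebrand factor gene and an endocardial marker in the list, at 0.22, and Eng, a TGF-beta co-receptor, at 0.24. Npr2 lay within 0.044 of Tnip1, Rpusd1 and Fiz1, at an SD of 0.17 of its own.

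**Figure D4:**
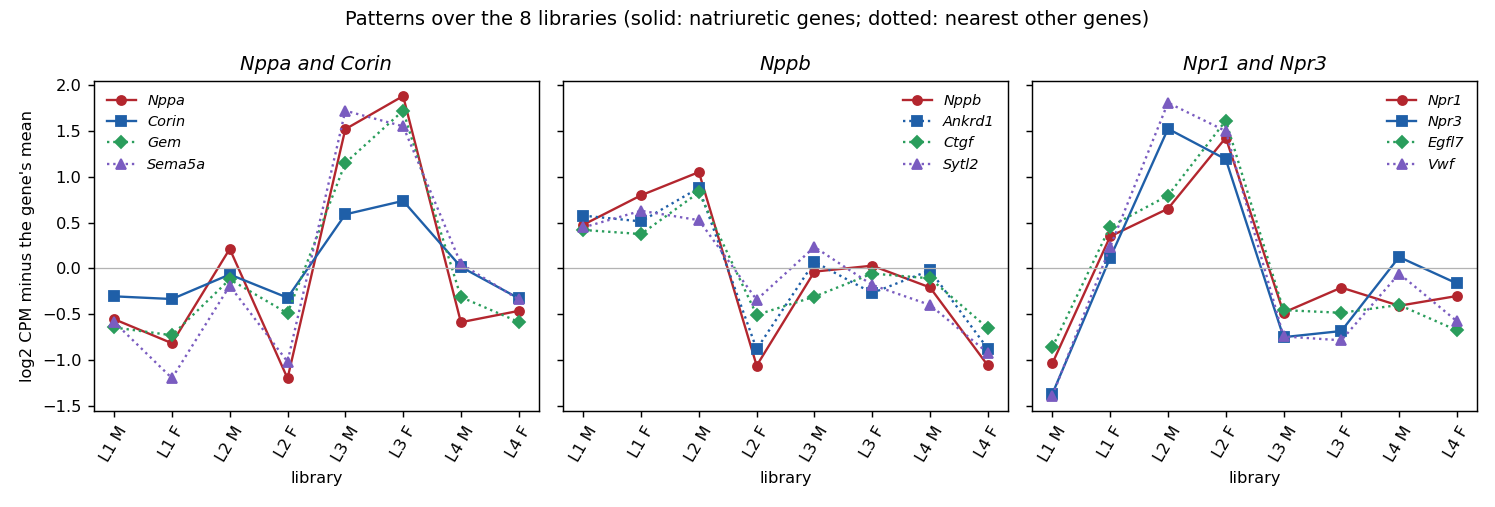
Log2 CPM minus the gene's mean in each library (L litter, M male, F female), for natriuretic genes (solid) and some of their nearest genes (dotted); lines join points for the eye only. Nppa and Corin peak in both libraries of litter 3, Nppb and Ankrd1 part within litter 2, and Npr1 and Npr3 peak in litter 2.

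Chamber markers were set beside Nppa, since ANP is most abundant in atria. The sum of 12 atrial markers, such as Myl7, Myl4 and Sln, was 307, 633, 427 and 433 CPM in the males of litters 1 to 4 and 259, 251, 358 and 361 CPM in the females. The sums of litters 3 and 4 were thus close for each sex, but much of the sum was Kcnj5, at 199 and 171 CPM in the male and female of litter 3 and 215 and 193 CPM in litter 4. Single markers, named after their values were seen, went either way. In the male and female, Bmp10 had 9.72 and 9.84 CPM in litter 3 against 5.75 and 3.27 CPM in litter 4, while Myl7 had 36.0 and 18.3 CPM against 59.5 and 42.4 CPM. Bmp10 and Myl7 missed the litter threshold (adjusted p = 0.123 and 0.356). Of the 12 atrial markers 5 passed the litter test (41.7%, against 32.1% of all genes), 2 of them highest in litter 3, and 3 of the 5 calls were kept without that litter. In litter 2 the male exceeded the female in this sum, in Nppa and in Nppb. Like Nppb, the atrial markers Myl7 (152 and 6.97 CPM) and Myl4 (160 and 19.2 CPM) were at their highest in that male and their lowest in that female. Of the 12 atrial markers 10 were higher in males, with a median log2 fold change of 0.88 and 0 calls. The part of atrial cells in the levels of Nppa and Nppb was not tested. The sum of 7 ventricular markers was 12041 to 12477 CPM in litter 3, below the 14029 to 16802 CPM of the other litters, and most of it was Myl2. Of the 5 ventricular markers that passed, 3 were lowest in litter 3 (41.8% of all called genes), while Irx4 and Hey2 were highest there (35.6% of all called genes). Without litter 3, the calls of Irx4 and Hey2 were kept, and those of Myl2, Fhl2 and Kcne1 were lost.

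Genes of the fetal and load-responsive set changed with litter in 8 of 12 cases (66.7%), against 32.1% of all genes, but not as a block. Myh7, the slow myosin heavy chain gene, peaked in litter 3 as Nppa did, with litter means of 394 ± 22.9, 588 ± 75.7, 4744 ± 1208 and 1509 ± 499 CPM (SD, n = 2; adjusted p = 3.29e-08). It was the only gene of the 8 with its highest level there under TMM, RLE and library size alone. Myh6, the fast heavy chain gene, was lowest in litter 3 at 16510 ± 585 CPM, where the other litter means lay at 24733 to 26452 CPM (adjusted p = 0.00325). Xirp2, which encodes a protein of the intercalated disc, was also lowest there, at 17.8 ± 3.37 CPM against 30.7 to 49.1 CPM (adjusted p = 7.15e-06). So was Actc1, cardiac actin, at 8512 ± 881 CPM against 12786 to 14172 CPM (adjusted p = 0.0003). Tnni1, the fetal troponin I gene, and Fhl1 changed by 0.38 and 0.34. In all, 6 of the 8 were lowest in litter 3, and 4 of 7 with library size alone. Of all 4427 called genes, 41.8% were lowest in litter 3. Without litter 3, 3 of the 8 kept their call, Myh7 with a range of 1.90 (adjusted p = 5.82e-06), Xirp2 and Tnni1, while Myh6 (0.675), Actc1 (0.339) and Fhl1 (0.309) did not pass by adjusted p. Acta1, Ankrd1, Csrp3 and Xirp1 did not pass with all litters, and of these Ankrd1 passed without litter 3 (adjusted p = 0.0376).

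Transcription factors known to act on Nppa and Nppb changed in 11 of 21 cases (52.4%, against 32.1% of all genes), with a median range of 0.43 (0.37 over all genes). Of the 11, 10 were highest in litter 3, as Nppa was; with RLE it was 11 of 12 and with library size alone 13 of 14. Of all called genes, 35.6% were highest in litter 3 with TMM, 37.1% with RLE and 44.9% with library size alone. Tbx2, a T-box repressor, ranged from 2.17 ± 0.221 CPM in litter 1 to 5.79 ± 1.08 CPM in litter 3 (adjusted p = 0.00537). Rest, a repressor known to silence fetal cardiac genes, reached 65.2 ± 2.08 CPM in litter 3 against 44.5 to 45.9 CPM (adjusted p = 0.00263). Gata6 had 326 ± 27.4 CPM in litter 3 against 232 to 261 CPM (adjusted p = 0.00158). The ventricular factors Irx4 and Hey2 changed by 0.52 and 0.58, and Tead1, a TEAD factor, was highest in litter 1 at 337 ± 8.93 CPM and lowest in litter 4 at 241 ± 5.96 CPM (adjusted p = 0.00128). All these ranges were smaller than that of Nppa. Without litter 3, 5 of the 11 kept their call, among them Irx4, Hey2 and Tead1, while Tbx2 (adjusted p = 0.07), Rest (0.925) and Gata6 (0.229) did not pass.

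Of 24 genes for cGMP signalling and peptide turnover, 18 were tested and 11 passed (61.1%, against 32.1% of all genes), 5 highest in litter 2, 5 in litter 3 and 1 in litter 1. Of all called genes, 15.3% were highest in litter 2, 35.6% in litter 3 and 29.8% in litter 1. Highest in litter 2, as Npr1 and Npr3 were, was Ece1, an endothelin-converting enzyme (20.4 ± 1.56 CPM against 8.26 to 9.39 CPM; adjusted p = 0.00017), and so was the peptidase Dpp4. Gucy1a3 and Mrvi1 were highest in litter 2 through its male alone, at 10.9 and 2.99 CPM. Its female had 3.96 and 1.17 CPM, within the range of the libraries of other litters. Gucy1a3 encodes a subunit of soluble guanylyl cyclase and ranged by 1.29, and Mrvi1, a substrate of cGMP-dependent protein kinase, by 2.47, at 0.380 to 2.08 CPM. Rgs2, a regulator of G-protein signalling and target of that kinase, was highest in litter 3 at 48.1 ± 4.98 CPM against 27.5 to 29.3 CPM (adjusted p = 0.00567). Abcc4, which exports cyclic nucleotides, was highest in litter 1 at 5.55 ± 0.0486 CPM and lowest in litter 3 at 2.65 ± 0.625 CPM (adjusted p = 0.0184). Furin, a convertase, and Ide, a peptidase that degrades ANP, named here after their values were seen, changed by 0.41 and 0.69. Without litter 3, 5 of the 11 kept their call: Ece1, Dpp4, Gucy1a3, Ide and the phosphodiesterase gene Pde3b, the last named after its values were seen. Mrvi1 (adjusted p = 0.149), Rgs2 (0.832), Abcc4 (0.0688) and Furin (0.0779) did not. Ostn, whose product binds Npr3, and Pde2a, a cGMP-regulated phosphodiesterase, had 0 counts throughout.

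The second comparison asked whether natriuretic genes differ between male and female cardiomyocytes, and none of the 6 passed. Without a litter term, 6 of all 13771 genes did (0.0436%), and 306 had an unadjusted p-value under 0.05, none of them a natriuretic gene. Males and females overlapped in CPM for all 6 genes. With litter as a term, which compares the male with the female of each litter, the 6 genes again gave 0 calls, where 29 of all genes passed (0.211%) and 1592 had an unadjusted p-value under 0.05. The intervals below show how large a difference these 8 libraries still allow.

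Males averaged 550 ± 427 CPM of Nppa and females 555 ± 639 CPM (SD, n = 4). The log2 fold change, male minus female, was -0.009 with a 95% interval of -1.56 to 1.54. With the litter term it was 0.28, from -0.16 to 0.73 (adjusted p = 0.608). The male was above the female in litters 1 and 2, by 0.26 and 1.41, and below it in litters 3 and 4, by -0.36 and -0.12. Nppb averaged 66.2 ± 27.3 CPM for males and 46.4 ± 29.8 CPM for females, with differences within litters of -0.32, 2.12, -0.065 and 0.85. Its log2 fold change was 0.52 (-0.41 to 1.44) and, with the litter term, 0.61 (-0.02 to 1.24; adjusted p = 0.444). For Nppb the sign rests on litter 2, without which the value was -0.012. For Corin the difference was 0.08 (-0.51 to 0.67) and, with the litter term, 0.12 (-0.04 to 0.28). Leaving out 1 library moved the value of Nppb to between 0.21 (male of litter 2 omitted) and 1.02 (female of litter 1 omitted).

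Npr1 was the gene nearest to a sex difference. The female exceeded the male in 4 of 4 litters, with log2 differences of male minus female of -1.46, -0.79, -0.29 and -0.11. Means were 2.11 ± 1.18 CPM for males and 3.42 ± 2.19 CPM for females. The log2 fold change was -0.70 (-1.73 to 0.33) and, with the litter term, -0.70 (-1.17 to -0.22; unadjusted p = 0.00745 and adjusted p = 0.295 in edgeR). The summed endothelial markers were lower in the male in litters 1, 2 and 3 and higher in litter 4, and in the fit with the litter term 1 of 8, Cldn5, was called lower in males (-2.21, adjusted p = 0.0259). In the same fit, which called 0.211% of all genes, 5 of 8 fibroblast markers were called higher in males, such as Dcn (1.14, adjusted p = 0.000315). Their part in the difference of Npr1 was not tested. Without a litter term, the value of Npr1 was -0.18 when the female of litter 2 was omitted and -1.18 when its male was. Npr2 had a difference of -0.12 (-0.38 to 0.14) and, with the litter term, -0.12 (-0.27 to 0.03). That of Npr3 was 0.01 (-1.31 to 1.33) and, with the litter term, -0.15 (-0.68 to 0.38).

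**Figure D5:**
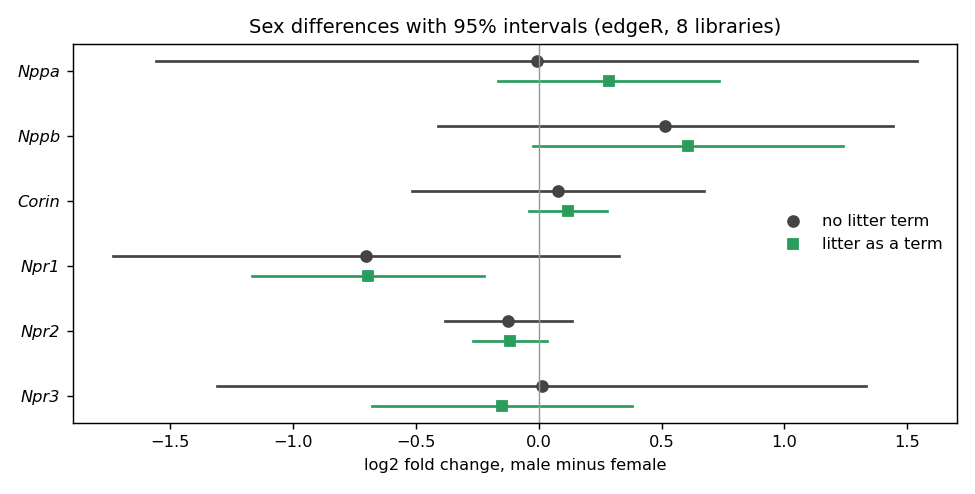
Log2 fold change, male minus female, of the 6 detected genes with 95% intervals from edgeR, without (circles) and with (squares) litter as a term. The interval of Npr1 leaves out 0 only with the litter term, at -1.17 to -0.22, and no gene passed after adjustment over all genes.

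An antisense gene overlaps Nppa: of 766 windows of 100 bases in the Nppa transcript, 43.9% also occur in Gm13054 on the opposite strand. The library kit keeps strand, but whether the counting used it is not given in the sources used here. Gm13054 had 5 to 19 counts per library, while Nppa had 3960 to 27098, and the number of Nppa counts that came from the opposite strand was not tested. Shared windows made up 2.85% of the longest transcript of Npr1 and 0.294% of that of Corin, both antisense, and 0% of those of Nppb, Npr2 and Npr3. Over all annotated exons, Npr2 also overlaps the antisense gene Gm12473 and Npr3 the opposite-strand gene Gm5144.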

How the data were processed

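The authors deposited raw read counts per gene symbol for 8 libraries, as whole numbers. STAR 2.7.3a and mm10 are named in the submitters' processing notes; the counting program, annotation and strand setting are not given in the sources used here. Per the labels' protocols, libraries came from 1 µg of total RNA with a stranded total RNA kit, while the labels call the molecule poly(A) RNA. No entry lacked a name.

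Genes were filtered with filterByExpr, scaled with TMM and tested with edgeR 4.0.16 in R 4.3.3 (quasi-likelihood F test, Benjamini-Hochberg over 13771 genes, threshold 0.05), with 6 residual degrees of freedom for sex and 3 for litter. SE is the log2 fold change over the square root of F, and log2 CPM had a prior count of 2. DESeq2 1.42.0, RLE, library size alone, no filter, omitted libraries and omitted mitochondrial genes were alternatives. The fits were tested on simulated data. Coordinates and lengths are from GENCODE M21, promoters from RefSeq GRCm38.p6 (7 of 7 matched). The natriuretic genes and all gene lists were chosen with earlier results of these data known. Named genes were the 7, at most 6 per pathway list past a threshold with the largest range, and the 3 nearest in pattern to each tested gene. All other genes were named after their values were seen. Gucy1a1, Gucy1b1 and Irag1 stand in the table under the older symbols Gucy1a3, Gucy1b3 and Mrvi1. A listed gene is not reported here.

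The labels give the litter as the number that pairs a male with a female. With each sex centred on its mean, the correlation across genes was 0.367 to 0.696 within litters and -0.482 to 0.27 between them. Chi-square per degree of freedom between libraries of 1 sex was at least 9.56, so none repeated another. Each library is 1 heart, and litter SDs rest on 2 hearts of different sex.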

Additional observations from a re-analysis of the deposited data

Results flagged for a closer look

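For the 6 detected genes, the extreme libraries among the 4 males and among the 4 females were set against the other 3, in 12 groups in all, of which 2 held a library far outside the other 3; chance gives about 1 in 20. Nppa had 1511 CPM in the female of litter 3, against 178 to 297 CPM in the other females. Corin had 302 CPM in the same library, against 143 to 145 CPM. The male of litter 3, also the highest of its sex for both genes, was not far enough from the other males by the same measure.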

How the results depend on the processing

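The sex test called 6 genes in all, 29 with litter as a block, 9 with DESeq2 and 5 to 7 without single libraries. The litter test called 4427, 3244 with DESeq2, 3341 with no sex term and 1898 without litter 3. No natriuretic gene passed by sex in any of 16 alternatives. Signs of small sex differences changed: for Nppa from -0.009 to 0.28 with the replicate block and 0.53 without litter 3; for Npr3 from 0.01 to -0.15 with the block and -0.37 without litter 2; for Nppb from 0.52 to -0.012 without litter 2. Omitting single libraries gave -0.69 to 1.21 for Nppa, -0.13 to 0.42 for Corin, -0.87 to 0.50 for Npr3, 0.21 to 1.02 for Nppb, -1.18 to -0.18 for Npr1 and -0.220 to -0.054 for Npr2. Fits by litter without 1 library leave 1 in its litter, which is assumed to vary like the others. By litter, Nppa, Corin and Npr3 kept their call in 15 of 16 alternatives, Npr1 in 14 and Npr2 in 7, and Nppb passed in 5. Without the filter on low counts the prior degrees of freedom of the litter fit became infinite, so its p-values are not printed. With lengths from all exons, Npr2 had 9.73 CPM per kilobase. The alternative without litter 2, and the counts of listed genes without litter 3, were chosen after seeing the data. Depth limits Npr1, at 28 counts in its lowest library, and Npr3, at 43. The block changed no call of a natriuretic gene.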

Other observations

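Some genes around Nppa and Nppb on chromosome 4 were followed as well. Plod1, which encodes a collagen-modifying enzyme, passed the litter test, as 32.1% of all genes did. It had 53.1 ± 5.98 to 76.2 ± 0.58 CPM as litter means and was lowest in litter 3, where Nppa was highest (range 0.52, edgeR adjusted p = 0.00827; without litter 3, 0.099 and 0.676). Clcn6, the chloride transporter gene next to Nppa, stayed between 20.6 and 24.2 CPM in all 8 libraries (range 0.12, adjusted p = 0.722). Mfn2, a mitochondrial fusion gene, had 599 to 730 CPM (adjusted p = 0.20).

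Genes of the trabecular and conduction set, where Nppa is also known to be expressed, passed in 6 of 8 cases, against 32.1% of all genes, and in 4 of 8 without litter 3, against 13.7%. Gja5, a gap junction gene named here after its values were seen, had 10.5 to 30.5 CPM and was lowest in litter 1, at 11.9 ± 1.92 CPM against 21.9 to 23.9 CPM (SD, n = 2; range 0.99, adjusted p = 0.00138).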
